A study of Homo sapiens with 21 samples.

Results

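The genes described here encode the core of the RAS to MAP kinase cascade in Hs578T cells, a line derived from a triple-negative breast tumour. They were taken by name from the count table: the exchange factors SOS1 and SOS2, the GTPases NRAS and HRAS, the kinases BRAF and ARAF, and MAP2K1, which encodes the kinase MEK1. All 7 were found among 28395 gene rows, and all 7 were among the 16036 genes with enough counts to be tested. In this cascade a growth factor receptor recruits SOS proteins, which load RAS with GTP. Active RAS brings RAF kinases to the membrane, RAF phosphorylates MEK, and MEK phosphorylates the ERK kinases, which drive proliferation. Hs578T is known to carry an activating mutation in HRAS, so the level of that gene has a particular place in this line.

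RNA was isolated 8 h after treatment from 7 groups of 3 replicates, 21 libraries in all. The groups were DMSO (the solvent control), THZ531 at 0.1 µM (low THZ531), lapatinib at 3.16 µM, nilotinib at 1 µM, each of these kinase inhibitors together with 0.1 µM THZ531, and THZ531 at 1 µM (high THZ531). THZ531 inhibits CDK12 and CDK13, which phosphorylate RNA polymerase II during elongation. Lapatinib inhibits the EGFR and HER2 receptors and nilotinib inhibits ABL, DDR and PDGFR kinases. The comparison asked whether a kinase inhibitor makes cells respond to a low dose of THZ531 as they do to the high dose. All groups are the same cell line, whose other genetic changes the DMSO group shares. The study describes the sequenced samples as coming from independent experiments. The labels do not say which replicate came from which, and the p-values measure the spread between these libraries.

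Total counts lay between 97612207 and 112229052 per library, and replicates of a group correlated at 0.990 to 0.994 on the log2 scale. Levels are given as CPM, counts relative to a library size scaled by TMM (trimmed mean of M-values). The log2 FC is the log2 fold change fitted by edgeR, with an adjusted p under 0.05 as the call. Of the 6 mesenchymal markers, VIM, SPARC, FN1, CDH2 and ZEB1 lay above 185 CPM in every library, with VIM between 6395 and 10120 CPM, while TWIST1 lay between 8.43 and 30.99 CPM. Of the epithelial markers, CDH1, EPCAM, KRT19 and CLDN4 stayed under 1 CPM, whereas KRT8 lay between 19.74 and 35.01 CPM and KRT18 between 83.48 and 160.9 CPM. ESR1 did not exceed 0.502 CPM and PGR 0.035 CPM, while the HER2 gene ERBB2 lay between 24.0 and 42.0 CPM. PTPRC did not exceed 2.45 CPM, PECAM1 0.605 CPM and ALB 0.105 CPM.

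TMM sets the typical gene near 0, and the combinations and high THZ531 changed most genes. A second scale set the libraries to equal counts of the 13 mRNAs made from mitochondrial DNA by another polymerase. It takes these mRNAs as unchanged by the treatments, which was not tested. On that scale the median of all tested genes moved to a log2 FC of -0.69 for lapatinib with low THZ531, -0.63 for nilotinib with low THZ531 and -0.55 for high THZ531. For lapatinib and nilotinib alone it moved to -0.15 and -0.18. Directions below are relative to the typical gene, and those that turn on the mitochondrial scale are named where they are given. The analysed values are of whole RNA pools, in which fewer cells and less RNA per cell cannot be told apart.

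In DMSO the 7 genes spanned a wide range of levels. NRAS had the highest level per kilobase of its canonical mRNA, at 78.1 ± 9.21 RPKM (SD, n = 3). MAP2K1 followed at 15.5 ± 0.197 RPKM and ARAF at 11.1 ± 0.222 RPKM. SOS1 at 5.83 ± 0.131 RPKM and SOS2 at 5.80 ± 0.145 RPKM overlapped, and BRAF lay just below at 5.39 ± 0.275 RPKM. HRAS was lowest, at 3.45 ± 0.588 RPKM. Over the 21 libraries the highest CPM exceeded the lowest by 1.17 times for ARAF, 1.70 times for BRAF, 1.78 times for MAP2K1, 1.81 times for NRAS, 1.96 times for SOS2, 2.78 times for SOS1 and 6.13 times for HRAS.

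**Figure D1:**
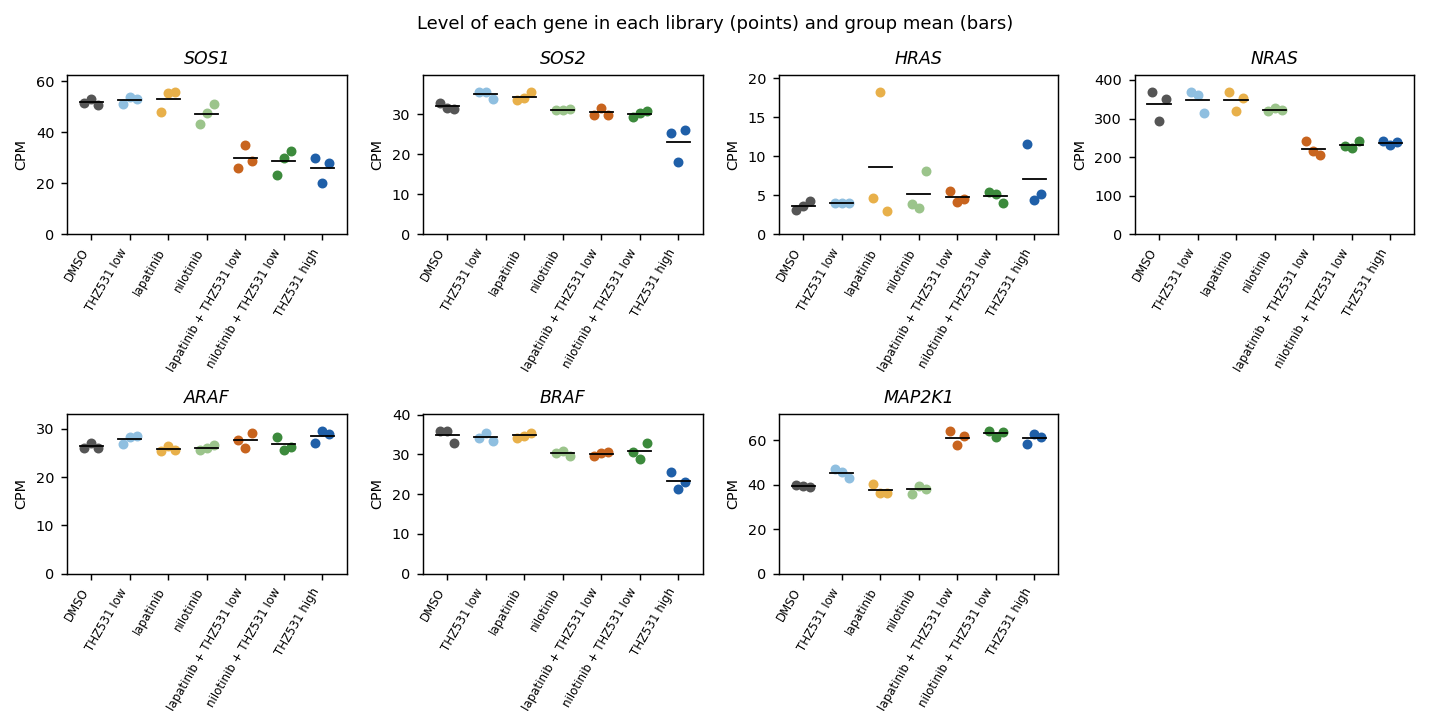
Level of each of the 7 genes in CPM (vertical axis, starting at 0) in every library (points) by treatment group (horizontal axis), with the mean of the 3 replicates as a bar. SOS1 and NRAS were lower in both combinations and in high THZ531 than in every DMSO library, MAP2K1 was higher there on this scale (on the mitochondrial scale its change with lapatinib and low THZ531 was -0.05), and HRAS stood out in single libraries.

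None of the 7 genes was called after a single treatment at its low or only dose. With low THZ531, 0 members were called, where 4.31% of all tested genes were called lower and 1.78% higher, and 1 member had an unadjusted p under 0.05. With lapatinib alone 0 were called, against 0.0561% lower and 0.256% higher among all genes, again with 1 member at an unadjusted p under 0.05. With nilotinib alone 0 were called, against 0.0998% lower and 0.243% higher, with 1 member at an unadjusted p under 0.05. DESeq2 called 1 member with low THZ531, MAP2K1, and 0 with either kinase inhibitor.

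After lapatinib and low THZ531 together, 3 of the 7 genes fell (SOS1, NRAS and BRAF) and MAP2K1 rose, the last not on the mitochondrial scale. On the TMM scale 37.8% of all tested genes were called lower and 34.3% higher in this comparison. With nilotinib and low THZ531 the same 4 genes were called in the same directions, MAP2K1 again not on the mitochondrial scale, against 37.3% lower and 33.7% higher among all genes. With high THZ531, 4 fell (SOS1, NRAS, BRAF and SOS2) and MAP2K1 rose, with the same exception, against 36.8% lower and 33.1% higher. A fall of more than 1 on the log2 scale was called in 0 members in either combination, where 21.3% of all genes with lapatinib and low THZ531 and 20.8% with nilotinib and low THZ531 passed this limit, and in 1 member, SOS1, with high THZ531, where 18.9% did. SOS1 was only just past this limit with high THZ531, at -1.003. It was at -0.97 with DESeq2's size factors, at -1.55 on the mitochondrial scale and at -1.12 to -0.85 when a library was left out. The median log2 FC of the 7 genes was -0.07 and -0.09 in the combinations and -0.47 with high THZ531, beside -0.01 over all tested genes in each. These 6 comparisons share the DMSO libraries.

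**Figure D2:**
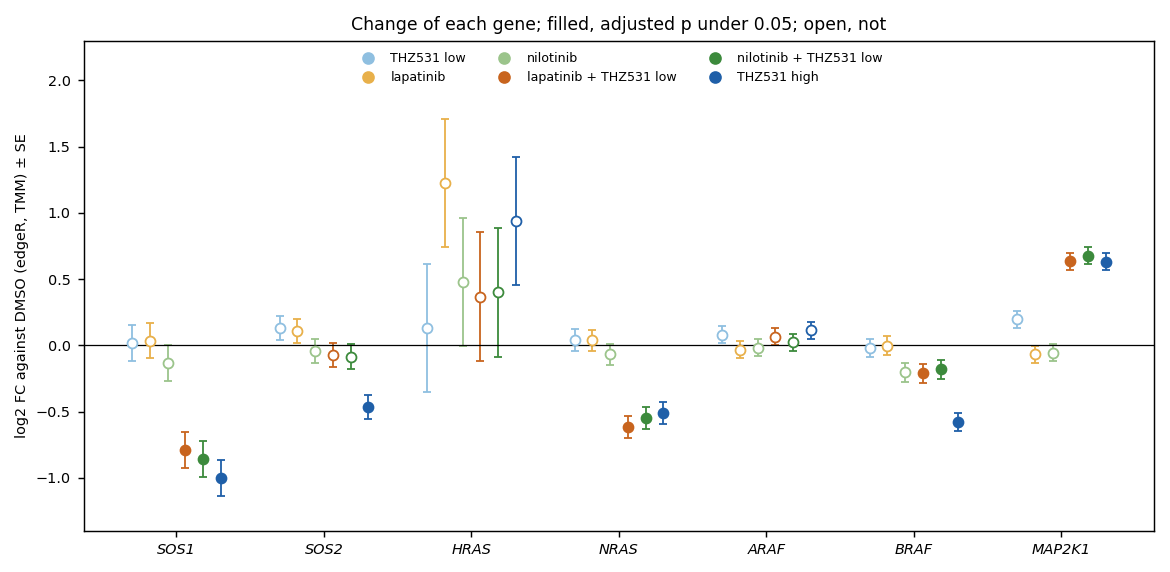
The log2 FC of each gene against DMSO (vertical axis, edgeR with TMM scaling, bars are the SE) in the 6 treatments, with filled points where the adjusted p was under 0.05. SOS1 and NRAS were called lower and MAP2K1 higher in both combinations and with high THZ531 (MAP2K1 at -0.05, 0.06 and 0.09 on the mitochondrial scale), BRAF lay lowest with high THZ531, and the HRAS bars were wide.

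SOS1 encodes the main guanine nucleotide exchange factor that activates RAS downstream of growth factor receptors. It lies on chromosome 2 (GRCh38, 38981549 to 39124868, minus strand) and spans 143 kb, with a first intron of 52582 bases. SOS1 was at 51.65, 53.17 and 50.88 CPM in the DMSO libraries. In the lapatinib combination it was at 25.88, 35.11 and 28.89 CPM, with nilotinib and low THZ531 at 23.35, 29.86 and 32.85 CPM, and with high THZ531 at 29.75, 20.09 and 27.83 CPM. All 9 of these libraries lay below all 12 others, and the 3 groups overlapped each other. The log2 FC was -0.79 ± 0.135 (SE, adjusted p = 2.81e-05) with lapatinib and low THZ531, -0.86 ± 0.136 (adjusted p = 1.21e-05) with nilotinib and low THZ531 and -1.003 ± 0.136 (adjusted p = 1.83e-06) with high THZ531. After the single treatments the means were 52.6 ± 1.32 CPM with low THZ531, 53.2 ± 4.38 CPM with lapatinib and 47.3 ± 3.94 CPM with nilotinib, each overlapping DMSO. The lncRNA SOS1-IT1 lies within SOS1 on the same strand and shares 1254 bases of exon with it, so reads of that stretch cannot be told apart.

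The 250 bases before the canonical start of SOS1, chr2:39121052-39121301 on the minus strand, are shown because SOS1 had the largest fall of the 7 genes. They hold no GC box, the letters GGGCGG on either strand, to which factors of the SP family bind, while 42.6% of 35116 RefSeq promoter windows of this length hold at least 1. The sequence is RefSeq's for GRCh38.p14, and the window before a second RefSeq start further upstream (chr2:39124869-39125118) holds 1 GC box and 1 CCAAT box.
SOS1: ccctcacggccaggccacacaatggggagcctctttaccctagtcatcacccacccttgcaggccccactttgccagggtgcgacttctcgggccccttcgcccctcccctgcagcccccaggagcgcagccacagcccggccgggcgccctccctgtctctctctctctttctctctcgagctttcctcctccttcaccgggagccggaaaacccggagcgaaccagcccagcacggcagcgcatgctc

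SOS2 encodes the second SOS protein, which shares the exchange activity of SOS1. The gene spans 115 kb of chromosome 14 (50117130 to 50231882, minus strand). SOS2 was at 32.83, 31.59 and 31.34 CPM in DMSO and at 25.16, 18.14 and 26.07 CPM with high THZ531, where all 3 libraries lay below every other library. The fall with high THZ531 was -0.47 ± 0.0919 (SE, adjusted p = 0.000154). In the combinations it was at 29.84, 31.45 and 29.85 CPM with lapatinib and at 29.32, 30.26 and 30.70 CPM with nilotinib, overlapping DMSO in the first case and lying just under it in the second. The log2 FC of -0.07 (95% interval -0.27 to 0.12) and -0.09 (95% interval -0.28 to 0.11) did not pass the test, with adjusted p of 0.492 and 0.416. Both passed on the mitochondrial scale, at -0.75 and -0.71, close to the shift of the median gene. With low THZ531 SOS2 was at 33.67 to 35.58 CPM, above all DMSO libraries, with an adjusted p of 0.484.

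NRAS encodes a GTPase that switches on RAF kinases when bound to GTP. It lies on chromosome 1 (114704469 to 114716771, minus strand), spans 12.3 kb and overlaps no annotated gene. NRAS was at 369.7, 293.3 and 351.1 CPM in DMSO. In the lapatinib combination it was at 241.3, 216.8 and 204.5 CPM, with nilotinib and low THZ531 at 227.8, 223.7 and 241.0 CPM, and with high THZ531 at 241.7, 231.1 and 238.4 CPM. No library of these 3 groups reached the lowest of the other 12. The log2 FC was -0.61 ± 0.0825 (SE, adjusted p = 1.38e-06), -0.55 ± 0.0824 (adjusted p = 5.99e-06) and -0.51 ± 0.0824 (adjusted p = 1.57e-05). With low THZ531 the mean was 348.2 ± 29.6 CPM, with lapatinib 346.9 ± 25.3 CPM and with nilotinib 322.3 ± 3.67 CPM, all overlapping DMSO.

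The 250 bases before the start of NRAS, chr1:114716772-114717021 on the minus strand, are shown as those of the most abundant member that fell. Capitals mark 2 GC boxes near the start.
NRAS: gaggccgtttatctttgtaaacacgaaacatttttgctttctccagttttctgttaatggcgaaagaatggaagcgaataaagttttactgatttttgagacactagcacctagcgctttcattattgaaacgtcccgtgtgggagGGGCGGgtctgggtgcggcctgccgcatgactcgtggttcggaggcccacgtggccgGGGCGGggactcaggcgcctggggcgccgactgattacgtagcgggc

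HRAS encodes the GTPase that carries the known mutation of Hs578T. The gene spans only 3.34 kb of chromosome 11 (532242 to 535576, minus strand). HRAS was counted 324 to 2028 times per library, the lowest of the 7 genes. It was at 3.064, 3.693 and 4.322 CPM in DMSO and at 4.049, 4.026 and 4.048 CPM with low THZ531. With lapatinib the libraries were at 4.609, 18.31 and 2.988 CPM, with nilotinib at 3.928, 3.335 and 8.146 CPM and with high THZ531 at 11.62, 4.409 and 5.209 CPM. Replicate 2 of lapatinib, replicate 3 of nilotinib and replicate 1 of high THZ531 thus stood apart, with 2028, 943 and 1107 counts, while the other 18 libraries held 324 to 513. In the combinations HRAS was at 5.583, 4.179 and 4.509 CPM with lapatinib and at 5.412, 5.207 and 4.003 CPM with nilotinib.

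No change of HRAS passed the test. With lapatinib the log2 FC was 1.23 ± 0.483 (SE, adjusted p = 0.535), and without replicate 2 of that group it was 0.04. With nilotinib it was 0.48 ± 0.483, and without replicate 3 it was -0.02. With high THZ531 it was 0.94 ± 0.483 (adjusted p = 0.0898) and all 3 libraries lay above DMSO, and without replicate 1 it was 0.38. The last comparison passed when lapatinib replicate 2 was left out of the fit (adjusted p = 0.015), when replicate 2 of high THZ531 was left out (adjusted p = 0.0495) and when only the DMSO and high THZ531 libraries were fitted (adjusted p = 0.02). In the combinations the log2 FC was 0.37 ± 0.487 with lapatinib and 0.40 ± 0.486 with nilotinib, with 95% intervals of -0.68 to 1.41 and -0.64 to 1.44, and both turned to -0.31 and -0.21 on the mitochondrial scale. Fitted on the compared groups alone, both passed the test, with adjusted p of 0.0481 and 0.0405.

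BRAF encodes the RAF kinase with the highest activity towards MEK. It lies on chromosome 7 (140713328 to 140924929, minus strand) and is the longest of the 7 genes, spanning 212 kb with a first intron of 74353 bases. BRAF was at 35.89, 35.84 and 32.79 CPM in DMSO. With high THZ531 it was at 25.68, 21.16 and 23.12 CPM, below all 18 other libraries, and the log2 FC was -0.58 ± 0.0711 (SE, adjusted p = 4.95e-07). The falls in the combinations were smaller. The lapatinib combination had BRAF at 29.56, 30.22 and 30.53 CPM, below all DMSO libraries, with a log2 FC of -0.21 ± 0.0708 (adjusted p = 0.0118). With nilotinib and low THZ531 it was at 30.53, 28.78 and 32.90 CPM, overlapping DMSO, with a log2 FC of -0.18 ± 0.0708 (adjusted p = 0.0283). Neither call held with DESeq2's size factors, which gave adjusted p of 0.0589 and 0.11, and the second was also lost with DESeq2 (0.0905), without a filter on low counts (0.0575), in a fit of only the compared groups (0.0855) and without DMSO replicate 1 (0.0916), DMSO replicate 2 (0.0844) or replicate 1 (0.0633) or 2 (0.14) of that combination.

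Nilotinib alone gave BRAF a level near that of the combinations. The libraries were at 30.29, 30.84 and 29.61 CPM, below all DMSO libraries, with a log2 FC of -0.20 ± 0.0706. The unadjusted p was 0.00936 and the adjusted p 0.271, so this difference did not pass. With low THZ531 BRAF was at 33.37 to 35.47 CPM and with lapatinib at 34.12 to 35.44 CPM, within the DMSO range. BRAF shares 1239 bases of exon with NDUFB2 on the opposite strand, and since counting was unstranded, reads there cannot be told apart.

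ARAF encodes a RAF kinase with weaker activity towards MEK than BRAF. The gene spans 10.7 kb of chromosome X (47561205 to 47571908, plus strand). ARAF was the steadiest of the 7 genes, with 25.32 to 29.58 CPM over the 21 libraries. It was at 26.08, 27.00 and 26.07 CPM in DMSO, at 27.62, 26.04 and 29.14 CPM with lapatinib and low THZ531 and at 28.38, 25.68 and 26.28 CPM with nilotinib and low THZ531. With high THZ531 it was at 27.01, 29.58 and 29.01 CPM, all just above DMSO. The log2 FC of 0.06 (95% interval -0.07 to 0.20), 0.02 (-0.11 to 0.16) and 0.11 (-0.02 to 0.25) did not pass the test, with adjusted p of 0.362, 0.77 and 0.116. DESeq2 called the last at 0.14 (adjusted p = 0.0283). All 3 turned negative and passed on the mitochondrial scale, at -0.62, -0.60 and -0.42, and with library size alone, at -0.26, -0.28 and -0.15.

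MAP2K1 encodes MEK1, which phosphorylates ERK and is the substrate of the RAF kinases. It lies on chromosome 15 (66386912 to 66491544, plus strand) and spans 105 kb. MAP2K1 was at 39.87, 39.61 and 38.89 CPM in DMSO. The lapatinib combination had it at 64.27, 57.72 and 61.91 CPM, with nilotinib and low THZ531 at 64.08, 61.61 and 63.70 CPM and with high THZ531 at 58.40, 63.10 and 61.75 CPM. All 9 libraries lay above the other 12, and the 3 groups overlapped each other. The log2 FC was 0.64 ± 0.0639 (SE, adjusted p = 2.45e-08), 0.68 ± 0.064 (adjusted p = 1.03e-08) and 0.63 ± 0.0639 (adjusted p = 3.46e-08). Scaled to mitochondrial mRNAs, these became -0.05, 0.06 and 0.09 and no longer passed, which is 0.64, 0.69 and 0.65 above the median gene of that scale. With library size alone the log2 FC was 0.31, 0.38 and 0.37 and passed (adjusted p = 0.000185, 2.07e-05 and 2.51e-05).

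MAP2K1 also stood slightly higher with low THZ531 alone. The libraries were at 46.92, 45.83 and 42.88 CPM, above all DMSO libraries and below all of the combinations and of high THZ531. The log2 FC was 0.20 ± 0.0637 (SE, unadjusted p = 0.00607, adjusted p = 0.0772), and DESeq2 called it at 0.22 (adjusted p = 0.0213). With lapatinib alone the mean was 37.7 ± 2.38 CPM and with nilotinib 37.96 ± 1.78 CPM, both overlapping DMSO. MAP2K1 shares 216 bases of exon with SNAPC5 and 1322 with an unnamed lncRNA, both on the opposite strand, so that reads of these parts cannot be told apart.

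The 250 bases before the canonical start of MAP2K1, chr15:66386662-66386911 on the plus strand, are shown as those of the member that rose. Capitals mark 3 GC boxes, of which those written CCGCCC are on the other strand, and the window also holds 1 CCAAT box, found in 32.0% of windows.
MAP2K1: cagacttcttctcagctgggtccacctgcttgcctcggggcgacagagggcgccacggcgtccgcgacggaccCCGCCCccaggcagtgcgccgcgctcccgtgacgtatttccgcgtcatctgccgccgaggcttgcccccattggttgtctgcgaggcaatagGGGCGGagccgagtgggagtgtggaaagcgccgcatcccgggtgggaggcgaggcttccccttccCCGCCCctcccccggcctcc

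The windows before the starts of the other members differed as much. SOS2 had 5 GC boxes and HRAS 3, while BRAF and ARAF had 0. The BRAF window (140924269 to 140924518) and the SOS2 window (50231579 to 50231828) lie inside the annotated gene spans. The RefSeq starts used for them are downstream of the outermost 5' ends, at 140924929 and 50231882. Sequence before those ends is not described here. BRAF and HRAS each had 1 CCAAT box and ARAF 2. The share of G and C was 54.4% for NRAS, 59.2% for ARAF, 64.8% for BRAF, 67.2% for SOS1, 71.2% for MAP2K1, 76.8% for SOS2 and 77.2% for HRAS. No window held a TATA box (TATAAA), which 10.7% of windows hold, and of the 7 genes only HRAS held the ETS core CCGGAAG, found in 8.52%. These matches describe letters only, since the counts do not measure binding.

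The ratio of 2 genes counted in the same library does not depend on how libraries are scaled. SOS1 exceeded SOS2 in counts in every DMSO library, with log2 ratios of 0.65, 0.75 and 0.70. Lapatinib with low THZ531 gave ratios of -0.21, 0.16 and -0.05, nilotinib with low THZ531 -0.33, -0.02 and 0.10, and high THZ531 0.24, 0.15 and 0.09. The mean difference from DMSO was -0.73, -0.78 and -0.54, in each case without overlap between groups. With 3 against 3 libraries the smallest two-sided exact permutation p is 0.1, and each of these 3 comparisons gave p = 0.1. Low THZ531 alone, at 0.53 to 0.65, lay below DMSO by a very narrow margin, its highest ratio 0.6523 beside a lowest of 0.6535. Its mean difference was -0.11 (exact permutation p = 0.1). SOS1 had a log2 FC of 0.02 there and SOS2 of 0.13, neither of them called. Lapatinib and nilotinib alone overlapped DMSO.

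The ratio of BRAF to ARAF counts passed below equal counts with high THZ531. Its log2 value was 0.46, 0.41 and 0.33 in DMSO and -0.07, -0.48 and -0.33 with high THZ531, so that the gene with more counts changed from BRAF to ARAF in all 3 libraries. The mean difference was -0.69. Equal counts are not equal mRNA levels, since the genes differ in mRNA length. Per kilobase of canonical mRNA, ARAF was already above BRAF in DMSO, at 11.1 ± 0.222 against 5.39 ± 0.275 RPKM (SD). In the combinations the ratio stayed positive, with mean differences of -0.27 and -0.20, and nilotinib alone gave -0.18. These 4 groups did not overlap DMSO (exact permutation p = 0.1 each), whereas lapatinib alone, at 0.39 to 0.46, did.

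The log2 ratio of NRAS to HRAS was 6.91, 6.31 and 6.34 in DMSO. With lapatinib and low THZ531 it was 5.43, 5.70 and 5.503, with nilotinib and low THZ531 5.40, 5.42 and 5.91, and with high THZ531 4.38, 5.71 and 5.52, all below DMSO (exact permutation p = 0.1 each). The differences were -0.98, -0.95 and -1.32, and the last was -0.91 without replicate 1 of high THZ531. The other 3 treatments overlapped DMSO. Across the 18 tests of 3 pairs and 6 treatments no p can reach 0.05, and adjusted values would be no smaller.

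**Figure D3:**
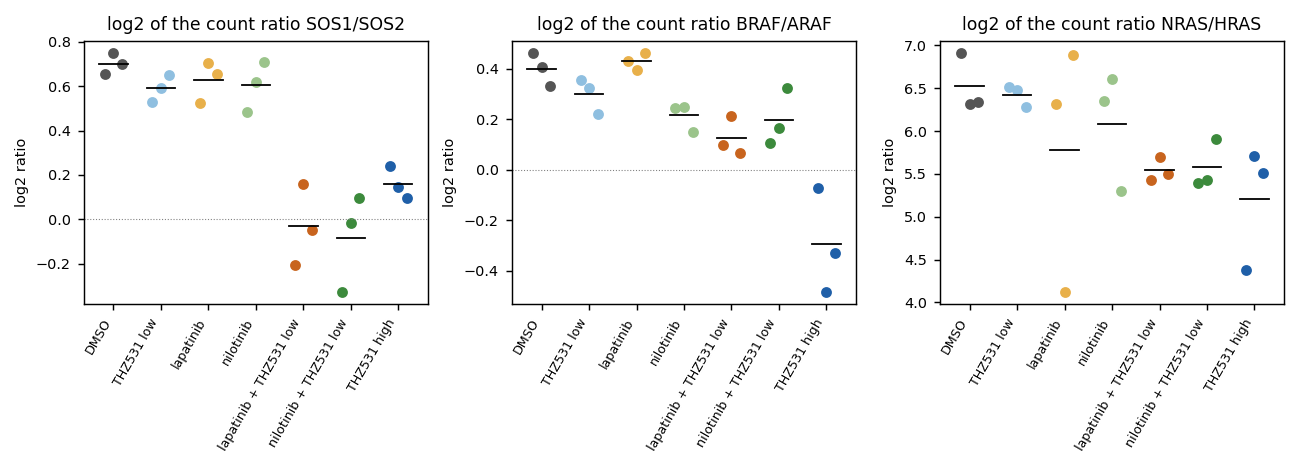
The log2 ratio of counts of 3 pairs of genes (vertical axes, not starting at 0) in every library (points), with the group mean as a bar and the dotted line at equal counts. SOS1/SOS2 fell from 0.65 to 0.75 in DMSO to around 0 in the combinations, BRAF/ARAF was below 0 in all high THZ531 libraries, and NRAS/HRAS was spread widely with lapatinib.

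Whether each combination matched high THZ531 was then tested directly. With lapatinib and low THZ531, 2 of the 7 genes differed from high THZ531, against 28.9% of all tested genes, and the same 2, BRAF and SOS2, differed with nilotinib and low THZ531, against 24.2%. BRAF was higher in the combinations than with high THZ531, by 0.37 ± 0.0712 (SE, adjusted p = 0.000531) and 0.40 ± 0.0712 (adjusted p = 0.000313) on the log2 scale. SOS2 was higher by 0.39 ± 0.092 (adjusted p = 0.00272) and 0.38 ± 0.092 (adjusted p = 0.00426). On the mitochondrial scale BRAF and SOS2 were still higher in the combinations, by 0.24 to 0.33, but no longer passed. Without replicate 2 of high THZ531 the SOS2 difference was 0.24 and 0.23 and still passed (adjusted p = 0.00533 and 0.00905). Fits of only the compared groups gave SOS2 differences of 0.42 and 0.41, as large as before, that did not pass (adjusted p = 0.0786 and 0.0976).

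For the other members these differences did not pass, and the 95% intervals give the sizes they allow. SOS1 was higher in the combinations by 0.21 (95% interval -0.08 to 0.50) and 0.15 (-0.14 to 0.44). HRAS had the widest intervals, at -0.57 (-1.61 to 0.46) and -0.54 (-1.57 to 0.49). Without replicate 1 of high THZ531 the HRAS differences were -0.02 and 0.02. ARAF differed by -0.05 (-0.18 to 0.09) and -0.09 (-0.23 to 0.04). NRAS differed by -0.10 (-0.28 to 0.07) and -0.04 (-0.21 to 0.14), and MAP2K1 by 0.0051 (-0.13 to 0.14) and 0.05 (-0.09 to 0.18), both of which turned negative on the mitochondrial scale, to -0.14 and -0.035. Between both combinations 0 of the 7 genes differed, against 1.47% of all genes, with 0 at an unadjusted p under 0.05 and 0 with DESeq2. The differences, lapatinib minus nilotinib combination, ran from -0.06 for NRAS to 0.06 for SOS1.

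The interaction asked whether a combination moved a gene by more than the sum of its parts on the log2 scale. For lapatinib 4 of the 7 genes passed, against 60.3% of all tested genes, and for nilotinib 3, against 56.8%. SOS1 and NRAS passed with both inhibitors. MAP2K1 also did, at 0.51 and 0.54, but on the mitochondrial scale its interactions were -0.04 and 0.09 and did not pass. SOS2 passed with lapatinib, at an adjusted p of 0.0478, and no longer did with the replicate block (adjusted p = 0.0505). Nor did it pass with DESeq2's size factors (adjusted p = 0.0825), with DESeq2 (0.0731) or without a filter on low counts (0.0574).

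The genes around the 7 members were read from a list of 40 further genes of the pathway, all of which were tested. With lapatinib and low THZ531 16 fell and 15 rose, which is 40.0% and 37.5% of the list beside 37.8% and 34.3% of all tested genes. With nilotinib and low THZ531 16 fell and 17 rose (40.0% and 42.5% beside 37.3% and 33.7%), and with high THZ531 18 fell and 15 rose (45.0% and 37.5% beside 36.8% and 33.1%). The median log2 FC of the list was -0.03, 0.03 and -0.10, beside -0.01 over all tested genes. Among the 7 GTPase activators, which switch RAS off, 5, 4 and 6 fell and 0 rose, with medians of -0.85, -0.81 and -0.73. These are 71.4%, 57.1% and 85.7% of 7 genes, beside 37.8%, 37.3% and 36.8% lower among all tested genes, a description that was not tested. The 4 exchange factors of the list, which switch RAS on, also fell, 2, 3 and 2 of them, and 0 rose. These are 50%, 75% and 50%, with medians of -0.57, -1.38 and -0.63. Of the 5 adaptors 0, 0 and 2 fell and 3, 4 and 3 rose. With the single treatments 1 of the 40 rose with low THZ531, 0 were called with lapatinib and 1 fell with nilotinib. On the mitochondrial scale 26, 24 and 23 genes of the list were called lower and 1, 0 and 0 higher, and with library size alone 21, 20 and 20 lower and 9, 9 and 11 higher.

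MAP2K2 and MAPK3, kinases that act below RAF, rose on the TMM scale, though neither rise passed on the mitochondrial scale. MAP2K2, which encodes MEK2, rose by 0.38, 0.42 and 0.40 from 261.3 ± 14.1 CPM in DMSO (-0.30, -0.19 and -0.13 on the mitochondrial scale). MAPK3, which encodes ERK1, rose by 0.66, 0.64 and 0.73 from 51.5 ± 0.881 CPM (-0.02, 0.02 and 0.19 on the mitochondrial scale).

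Among the scaffolds and regulators of the list, PEBP1, which encodes an inhibitor of RAF, rose by 0.99, 0.87 and 0.82 from 184.8 ± 6.70 CPM in DMSO. On the mitochondrial scale these were 0.31, 0.26 and 0.27, of which only the first passed (adjusted p = 0.0478, 0.102 and 0.0849). IQGAP1, a scaffold of the cascade, rose by 0.74, 0.79 and 0.68, and the last was 0.13 on the mitochondrial scale (adjusted p = 0.391). KSR1, a scaffold of RAF and MEK, rose by 0.56 and 0.85 in the combinations and was at -0.28 with high THZ531 (adjusted p = 0.262), and the rise in the nilotinib combination was 0.22 on the mitochondrial scale (adjusted p = 0.325). MKNK2, a kinase that ERK activates, rose by 0.91, 0.56 and 0.35, and the first was 0.22 on the mitochondrial scale (adjusted p = 0.147).

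A further list held 21 genes of other MAP kinases, those of the JNK, p38 and ERK5 modules and MAPK6, which encodes the atypical kinase ERK3. Of these, 12 were called lower and 5 higher with lapatinib and low THZ531, 9 and 5 with nilotinib and low THZ531, and 13 and 3 with high THZ531, with medians of -0.37, -0.12 and -0.57. The shares called lower were 57.1%, 42.9% and 61.9%, beside 37.8%, 37.3% and 36.8% of all tested genes, and those called higher 23.8%, 23.8% and 14.3%, beside 34.3%, 33.7% and 33.1%. On the mitochondrial scale 17, 14 and 15 were called lower and 1, 1 and 0 higher, and with library size alone 14, 11 and 13 lower and 1, 2 and 1 higher. MAPK14, which encodes p38 alpha, had falls of -1.75, -1.43 and -1.54 from 82.3 ± 7.64 CPM. MAPK7, which encodes ERK5, had falls of -1.48, -1.74 and -1.62 from 25.4 ± 2.83 CPM. MAP3K3 was at -1.49, -1.43 and -1.08, and MAP2K7, a kinase of the JNK module, at -1.30, -1.33 and -1.42, all past the test. MAP3K2 rose by 1.03 and 1.07 in the combinations and by 0.30 with high THZ531. With the single treatments 0 of the 21 genes were called with low THZ531 or lapatinib and 1 rose with nilotinib.

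**Figure D4:**
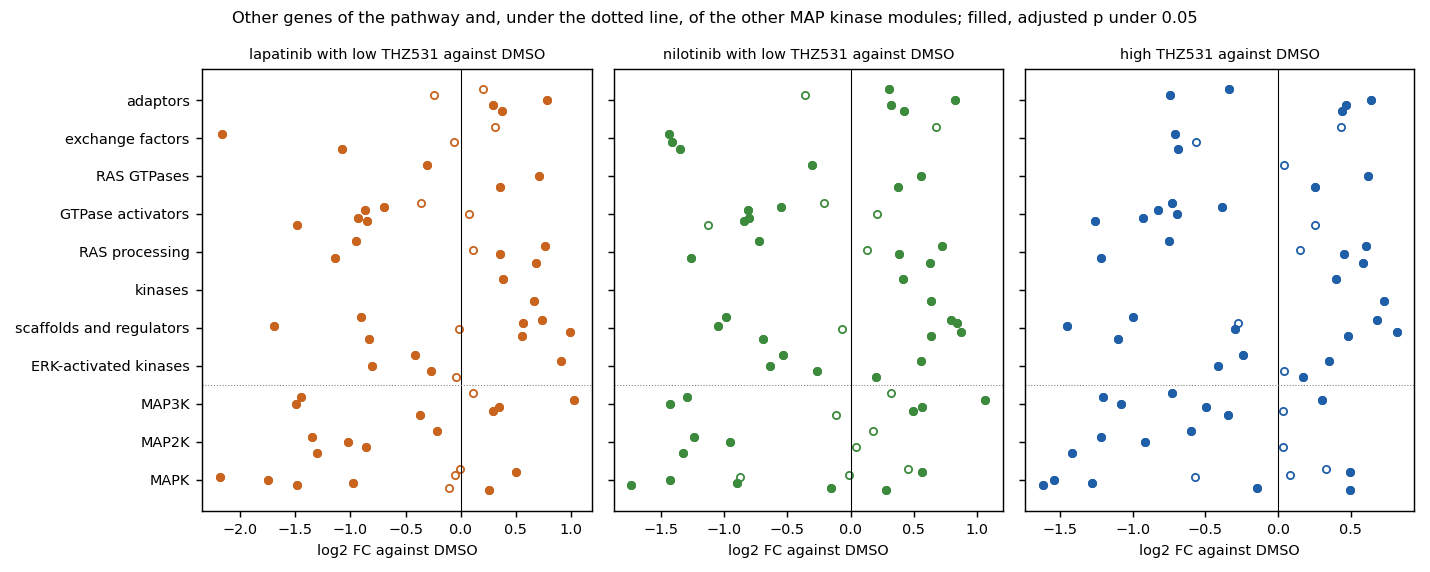
The log2 FC against DMSO (horizontal axis, TMM scale) of 40 other genes of the pathway and, under the dotted line, 21 genes of other MAP kinases, by role (vertical axis), with filled points where the adjusted p was under 0.05. The called GTPase activators and the called exchange factors lay below 0. MAP2K2 and MAPK3 (kinases) lay above 0 on this scale (MAP2K2 below 0 in all 3 treatments and MAPK3 in the first on the mitochondrial scale).

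The span of a gene sets how far RNA polymerase II must travel, and CDK12 is known for its part in elongation over long genes. SOS1, SOS2, BRAF and MAP2K1 span 105 to 212 kb, which placed them at the 87.3, 83.2, 92.7 and 81.3 percentile of 13745 tested protein-coding genes. NRAS, ARAF and HRAS were at the 24.7, 21.8 and 5.53 percentile. The share of genes called lower did not rise with span throughout. With high THZ531 it was 32.2% under 10 kb, 39.9% at 10 to 20 kb, 43.7% at 50 to 100 kb and 36.8% over 250 kb. With lapatinib and low THZ531 it was 28.8% under 10 kb and highest at 50 to 100 kb, at 47.1%. The bin of 100 to 250 kb held 1930 genes. Of these, 43.8%, 41.3% and 43.9% were called lower in the 3 treatments, and 26.9%, 28.4% and 25.9% higher. SOS1 and MAP2K1 lay on opposite sides in this bin, SOS1 at -0.79 and MAP2K1 at 0.64 with lapatinib and low THZ531, where the quartiles of the bin were -0.92 and 0.39. In the bin of 10 to 20 kb, with 2279 genes, NRAS fell by 0.61 while ARAF was at 0.06, around a median of -0.02.

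The letters AATAAA, the most common polyadenylation signal, were counted in the introns of each gene outside any exon. SOS1 held 160, or 1.36 per kb, SOS2 127 (1.18 per kb), BRAF 172 (0.966 per kb) and MAP2K1 64 (0.651 per kb). NRAS held 17 in its short introns, 2.13 per kb, the highest density of the 7, while ARAF held 2 (0.274 per kb) and HRAS 0. The median of 12531 protein-coding genes was 0.751 per kb, with quartiles of 0.401 and 1.04. SOS1 and NRAS lay at the 92.7 and 99.2 percentile, SOS2 at 85.1, BRAF at 68.8, MAP2K1 at 41.7, ARAF at 17.2 and HRAS at 0.0. With 7 genes this is a description, and the use of such sites was not measured by counts per gene. The study itself reported intronic polyadenylation in SOS1 and BRAF from its RNA sequencing. Counts per gene also hold reads of exons before such a site, so they do not measure full-length mRNA alone.

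**Figure D5:**
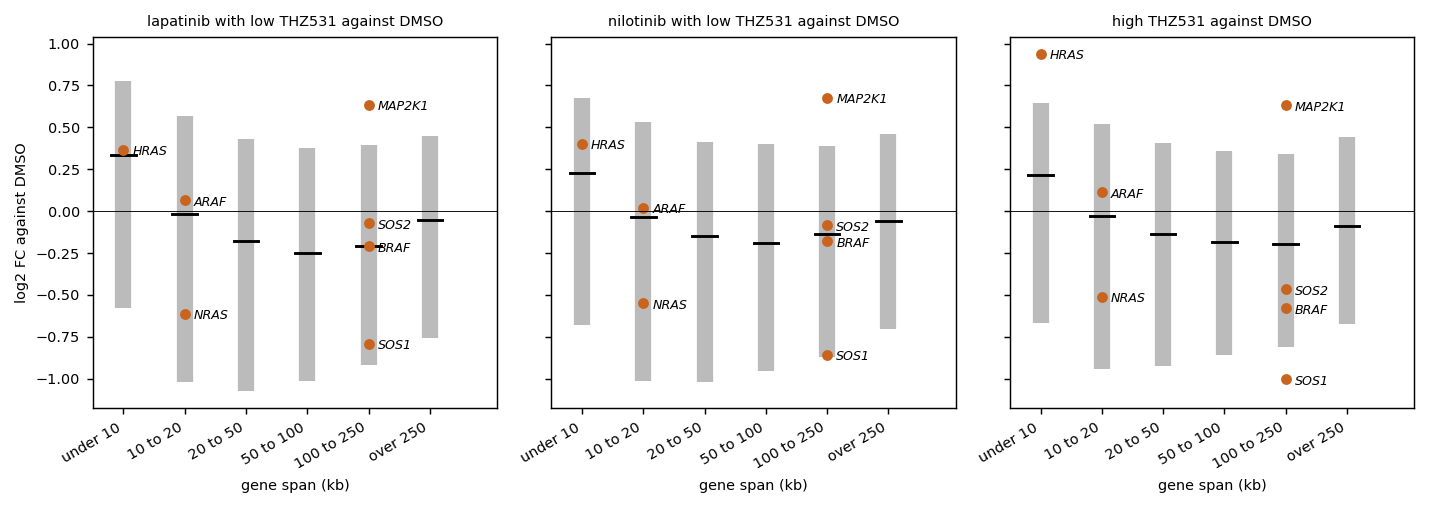
The log2 FC against DMSO (vertical axis, TMM scale) of tested protein-coding genes in bins of gene span (horizontal axis, kb), as quartiles (grey) and median (black), with the 7 members as points. SOS1, SOS2, BRAF and MAP2K1 share the bin of 100 to 250 kb and differ in their change, from -0.79 for SOS1 to 0.64 for MAP2K1 with lapatinib and low THZ531 (MAP2K1 at -0.05 on the mitochondrial scale).

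Each member was set against 8794 well expressed genes by Pearson's r of log2 CPM over the 21 libraries, which share the treatments and the scaling. SOS1 was closest to ARID2, CBLL1 and NCOA2 (r = 0.993, 0.992 and 0.991). SOS2 was closest to RSBN1, RIC1 and ELF1 (0.978, 0.977 and 0.974), and the nearest to NRAS included MAT2B and TBC1D23 (0.985 and 0.982). BRAF was closest to ZFX, FBXW11 and MKLN1 (0.941, 0.932 and 0.932), MAP2K1 to TUBA1C, GALNT11 and SPNS1 (0.986, 0.985 and 0.983) and ARAF to SPR, MCOLN1 and USP11 (0.837, 0.792 and 0.787). For HRAS the nearest genes included EPB41 and RUFY1 at only 0.503 and 0.475.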

How the data were processed

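RNA of Hs578T cells was sequenced from unstranded, polyA-selected, paired-end libraries. The authors aligned filtered reads to GRCh38 with HISAT2 (2.1.0 in the submitters' processing notes), counted them on genes with featureCounts and deposited raw counts per NCBI gene identifier without normalization. The annotation and the version of featureCounts are not given in the sources used here. Of 28395 identifiers 27745 matched a RefSeq name (GRCh38.p14) and held 99.98% of all counts, and 0 columns were left unused.

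Counts were filtered with filterByExpr, scaled with TMM and fitted with edgeR 4.0.16 (R 4.3.3, limma 3.58.1) as 1 mean for each of the 7 groups. Each contrast went through glmQLFTest, with Benjamini-Hochberg adjustment over 16036 genes and a call at 0.05. The 95% intervals used the SE and 14 residual degrees of freedom. The script was tested on simulated counts. Alternatives were DESeq2's size factors (RLE), scaling to 13 mitochondrially encoded mRNAs, no filter, DESeq2 1.42.0, only the groups compared, a replicate block, leaving out each library and, chosen after seeing the data, library size alone. Spans and exons came from RefSeq and GENCODE v44, and RPKM used the canonical mRNA length. Near-identical paralogs can share reads.

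Besides the 7 members, further genes were named by rule. In the combinations and high THZ531 they were the 3 genes of the pathway lists that fell most and the 3 that rose most. These were taken among those called with mean log2 CPM from 1 upwards. MAP2K2, a paralog of MAP2K1, and MAPK3, a kinase below MEK, were named as well. So were the 3 nearest genes to each member among genes whose mean log2 CPM was 3 or more. Some genes that this rule or the lists would name are not reported here. The members and lists were chosen with earlier results of these data known. No replicate pair was a duplicate library (chi-square over degrees of freedom from 7.75 to 144).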

Additional observations from a re-analysis of the deposited data

Results flagged for a closer look

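The effect of low THZ531 differed with and without a kinase inhibitor for several members, by the interaction in edgeR's model on the log2 scale. With lapatinib, SOS1 was lower by -0.85 ± 0.19 (SE, adjusted p = 0.000751) and NRAS by -0.69 ± 0.116 (adjusted p = 3.7e-05) than the sum of both single effects, and MAP2K1 was higher by 0.51 ± 0.0902 (adjusted p = 7.23e-05). SOS2 was lower by -0.31 ± 0.129 (adjusted p = 0.0478). With nilotinib, SOS1 was lower by -0.74 ± 0.19 (adjusted p = 0.00261), NRAS by -0.52 ± 0.116 (adjusted p = 0.000742), and MAP2K1 was higher by 0.54 ± 0.0902 (adjusted p = 4.17e-05). Of all tested genes 60.3% and 56.8% passed the same tests. On the mitochondrial scale the MAP2K1 interactions were -0.04 and 0.09 and did not pass. The SOS2 call did not hold in 16 of 21 fits that left out a library.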

How the results depend on the processing

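Among the counts of called members, DESeq2 called 1 with low THZ531. In the comparisons of each combination with high THZ531, the mitochondrial scale gave 0 called members and fits of only the groups compared 1, in place of 2. Library size alone gave 5 in place of 3 for the interaction with nilotinib. Leaving out a library in turn gave 3 to 4 called members for nilotinib with low THZ531, 5 to 6 for high THZ531, 3 to 4 for the lapatinib interaction and the same count as before in the other comparisons. Without DMSO replicate 1 the NRAS/HRAS difference for lapatinib with low THZ531 was -0.78, and over these omissions it ranged from -1.08 to -0.78.

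The directions that turned were mostly of differences near 0 or on the mitochondrial scale. On that scale lapatinib alone gave a log2 FC of -0.10 for SOS1, -0.031 for SOS2 and -0.10 for NRAS. The lapatinib combination gave -0.31 for HRAS, -0.62 for ARAF, -0.048 for MAP2K1, -0.30 for MAP2K2 and -0.023 for MAPK3. The nilotinib combination gave -0.21 for HRAS, -0.60 for ARAF and -0.19 for MAP2K2, and high THZ531 gave -0.42 for ARAF and -0.13 for MAP2K2. Against high THZ531, MAP2K1 turned to -0.14 and -0.035 in the lapatinib and nilotinib combinations, and between these SOS2 turned to -0.047 and ARAF to -0.025. The lapatinib interaction turned to -0.54 for ARAF and -0.043 for MAP2K1, and the nilotinib interaction to -0.41 for BRAF. Library size alone turned SOS1 with low THZ531 to -0.017, BRAF with lapatinib to 0.0002, and ARAF to -0.26, -0.28 and -0.15 in the lapatinib combination, the nilotinib combination and high THZ531. It also turned MAP2K1 in the lapatinib combination against high THZ531 to -0.064, SOS2 between the combinations to -0.012, the lapatinib interaction of ARAF to -0.28 and the nilotinib interaction of BRAF to -0.20. BRAF with low THZ531 turned to 0.0031 with RLE size factors and 0.003 with DESeq2, and BRAF with lapatinib to 0.0027 in a fit of only the groups compared.

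Leaving out a library in turn moved values near 0 across it. With low THZ531 NRAS ranged from -0.0494 to 0.113 and BRAF from -0.0605 to 0.0028. With lapatinib SOS1 ranged from -0.0024 to 0.103, NRAS from -0.0552 to 0.107 and BRAF from -0.0445 to 0.0191, and with nilotinib HRAS from -0.0235 to 0.71 and NRAS from -0.161 to 0.0009. In the nilotinib combination ARAF ranged from -0.0212 to 0.052. Against high THZ531, MAP2K1 in the lapatinib combination ranged from -0.0309 to 0.0455, and in the nilotinib combination SOS1 ranged from -0.0046 to 0.277 and HRAS from -0.788 to 0.0213. Between the combinations SOS1 ranged from -0.0692 to 0.17, SOS2 from -0.0142 to 0.0269, HRAS from -0.169 to 0.0479 and BRAF from -0.0773 to 0.0202. The lapatinib interaction ranged from -1.401 to 0.191 for HRAS and from -0.027 to 0.0529 for ARAF, and the nilotinib interaction from -0.44 to 0.294 for HRAS and from -0.0096 to 0.0879 for BRAF. The mitochondrial mRNAs held 1.14% to 1.78% of the counts. The cause of these changes was not tested.

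The labels do not say whether the replicate number pairs the samples. Deviations of same-numbered libraries correlated at 0.152 on average (-0.83 to 0.892, with 36 of 63 pairs over 0.1), beside -0.069 for different numbers. Only 8 of 21 libraries correlated best with their own number, so a pairing was not settled. With the replicate block the number of called members was 4 for lapatinib with low THZ531, 4 for nilotinib with low THZ531 and 5 for high THZ531, as without it, and the block ended only the SOS2 interaction with lapatinib (-0.31, adjusted p = 0.0505). HRAS, with 324 counts at the lowest, had the widest spread between replicates of the members.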
